A study of Mus musculus with 6 samples.

Results

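The box C/D small nucleolar RNA (snoRNA) genes of D10 T cells were examined after cold acclimation. They were taken from the deposited gene table as the genes of type snoRNA whose symbol starts with Snord, which gave 100 genes among 1330 snoRNA genes and 41079 listed genes. Of these 100 genes, 69 had at least 1 read in any library and 31 were at 0 in all 6 libraries.

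Box C/D snoRNAs are short nucleolar RNAs that pair with ribosomal RNA (rRNA) or spliceosomal RNA and direct a 2′-O-methyl group to the ribose of the paired nucleotide. They are bound by the core proteins Fbl (fibrillarin, the methyltransferase), Nop56, Nop58 and Snu13, and are named after their box C and box D sequence motifs. In mammals most of them lie in introns of host genes, from which they are released after splicing by debranching and trimming, and many of these hosts encode ribosomal proteins or other parts of the translation and ribosome assembly machinery.

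The labels describe D10 as a cloned CD4+ mouse helper T cell line, so that the cells of both conditions are labelled as 1 clone. The cells, of the same line in both groups, were kept for 24 h either at 26°C (cold-acclimated, 3 replicates) or at 37°C (non-acclimated, 3 replicates). Poly(A)+ RNA was sequenced with a strand-specific kit. The deposited values are TPM values (transcript abundances), a level per gene length that sums to 1000000 in each library, and the read numbers behind them were recovered from the values.

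The question was whether the snoRNA genes changed with temperature, and whether each did so by the same factor as its host. The non-acclimated libraries held between 16899639 and 31290868 recovered reads and the cold-acclimated libraries between 19605937 and 25169504. The T cell markers summed to between 3076 and 4846 TPM at 37°C and between 3550 and 4572 TPM at 26°C, with Cd3e at 476 TPM or more in every library. Cd4 was at 310 and 328 TPM in the libraries of replicate 3 but at no more than 1.3 TPM in the other 4, so these 4 went against the CD4+ label. Replicate 2 stood apart in other T cell markers, with Trac at 14.96 and 12.8 TPM against 129 to 207 TPM in the other 4 libraries, and Cd28 at 7.35 and 5.61 TPM against 27.9 to 54.5 TPM. The libraries thus differed between replicate numbers at both temperatures. The B cell markers summed to no more than 1.11 TPM, with Ms4a1 at 0 throughout, and the macrophage markers to no more than 21.2 TPM, with Cd14 at 0 throughout. The erythroid markers summed to between 80.0 and 487 TPM at 37°C and between 61.3 and 474 TPM at 26°C, nearly all of it from Hba-a1, while Hbb-bs and Hbb-bt were at 0. The part of these markers in the snoRNA values was not tested.

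The sequences of the 8 genes with the largest called increase are shown first, because the results turn on them. They were read from the GRCm39 assembly at the deposited coordinates, 5′ to 3′ on the strand of the gene. Capitals mark the core of box C, TGATGA, where it lies in the first 20 bases, and the last copy of box D, CTGA, where it lies in the last 20 bases.

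Snord16a, chr9:64082714-64082804, plus strand: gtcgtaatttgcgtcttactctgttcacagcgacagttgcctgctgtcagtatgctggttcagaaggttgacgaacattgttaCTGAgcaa
Snord53, chr17:71947884-71947951, plus strand: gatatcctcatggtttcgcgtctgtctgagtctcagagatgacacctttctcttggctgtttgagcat
Snord98, chr10:62601358-62601385, minus strand: aatgcagtgtggaacataatgaaCTGAa
Snord69, chr14:30736250-30736308, minus strand: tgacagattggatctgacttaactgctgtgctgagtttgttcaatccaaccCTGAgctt
Snord71, chr8:110565944-110566007, plus strand: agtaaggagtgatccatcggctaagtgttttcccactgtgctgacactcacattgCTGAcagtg
Snord70, chr1:59731117-59731169, plus strand: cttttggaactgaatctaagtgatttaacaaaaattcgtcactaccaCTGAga
Snord110, chr2:130117435-130117493, plus strand: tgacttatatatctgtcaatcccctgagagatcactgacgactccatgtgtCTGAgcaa
Snord19, chr14:30738176-30738229, minus strand: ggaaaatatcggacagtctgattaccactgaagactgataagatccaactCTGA

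Box D was found in these windows in 99 of the 100 genes, and the exception was Snord53, whose deposited gene has no CTGA in its last 20 bases. Box C in its full form was found in 49 of the 100 genes, and in none of the 8 genes above. In windows of the same lengths placed 200 bases upstream of each gene, CTGA was found at the same place in 16 of 100 and TGATGA in 2 of 100. Among the 40 box H/ACA snoRNA genes, which belong to the pseudouridine-guiding class, the corresponding counts were 4 and 0. Only the strand of the gene was searched, and an absent motif says only that these letters are not in that window.

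Of the 100 genes, 97 lay inside a host gene on the same strand, and these 97 shared 55 hosts. For the 75 genes whose host could be matched to the GENCODE annotation, 22 lay in introns only and 53 in an intron of some transcripts and an exon of others, so reads from such host transcripts can fall on the snoRNA gene. The distance to the next exon downstream had a median of 84 bases, and 39 of the 75 lay between 60 and 100 bases from it. The genes were between 28 and 221 bases long, with a median of 75.5 bases. Mature box C/D snoRNAs carry no poly(A) tail, and the values here count reads assigned to the snoRNA gene, without telling the mature snoRNA from host RNA that spans it.

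The 100 genes together took few reads, and their summed level was higher in each cold-acclimated library than in any non-acclimated one. Their recovered reads numbered 297, 439 and 907 in the non-acclimated libraries and 1047, 1726 and 895 in the cold-acclimated libraries. Their summed TPM was 594, 729 and 1038 at 37°C and 1667, 2663 and 1204 at 26°C. The 2 conditions did not overlap, and replicate 3 had both the highest non-acclimated and the lowest cold-acclimated sum. The mean sum was 787 ± 228 TPM at 37°C and 1845 ± 745 TPM at 26°C (SD, n = 3 each), a ratio of 2.34, with a two-sided exact permutation p of 0.1, the smallest that 3 against 3 libraries can give. Snord96a alone held 1886 of the 5311 reads (35.5%), and without it the ratio was 2.23. The host genes, summed in the same way, had a ratio of 1.21 (exact permutation p = 0.2). The number of genes with a read was 48, 49 and 56 at 37°C and 62, 64 and 59 at 26°C. In the same order the libraries held 16899639, 21462551 and 31290868 recovered reads at 37°C and 19605937, 20579402 and 25169504 at 26°C. The part of depth in these numbers was not tested. In bulk RNA, fewer cells of a kind and less RNA per cell cannot be told apart.

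**Figure D1:**
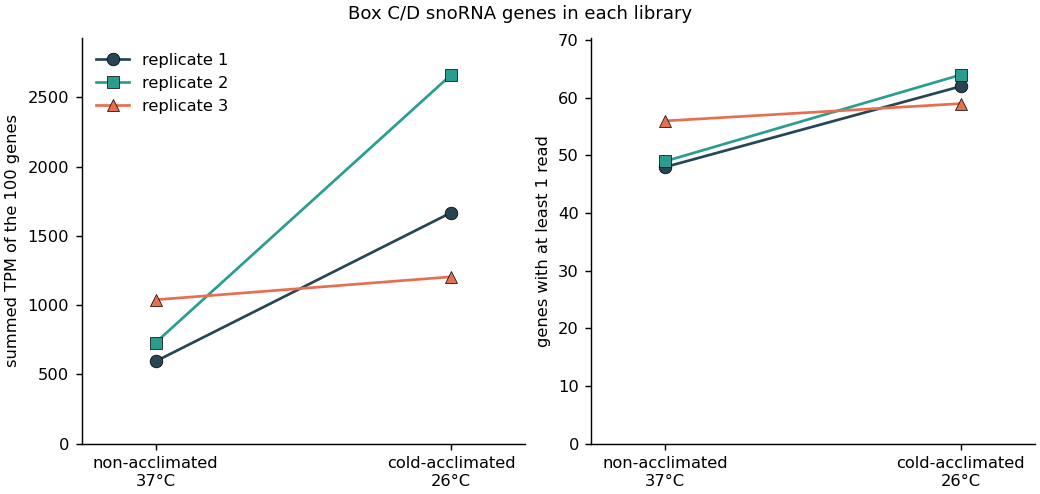
Summed TPM of the 100 box C/D snoRNA genes (left panel, TPM) and number of these genes with at least 1 read (right panel, genes) in each library, at 37°C and 26°C. Lines join libraries of the same replicate number; summed TPM went from 594 to 1667 in replicate 1, from 729 to 2663 in replicate 2 and from 1038 to 1204 in replicate 3.

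Reads per gene were low. Of the 100 genes, 65 had a mean of at least 1 TPM and were tested, while 31 had no read and the other 4 (Snord13, Snord59a, Snord8 and Snord92) had 2 to 4 reads over all libraries. Among the tested genes the median was 27 reads over the 6 libraries, against 4311 over all tested genes, and only 3 genes had at least 10 reads in every library. Depending on the gene and library, 1 read was worth between 0.376 and 5.21 TPM. The last gene inside the filter was Snord14c with a mean of 1.01 TPM, and the first outside it was Snord13 with 0.731 TPM. For 11 of the 65 genes the mean at 37°C was under 1 TPM, whereas no tested gene had a mean under 1 TPM at 26°C, so 11 genes passed the filter through the cold-acclimated libraries alone. Counts and medians over the 65 genes are therefore descriptions.

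Of the 65 tested genes, 9 were upregulated and 1 was downregulated in cold-acclimated cells by limma over all 12227 tested genes, with thresholds of 0.05 for the Benjamini-Hochberg adjusted p and of 1 for the size of the change on the log2(TPM + 1) scale. Over all tested genes, 2.63% were upregulated and 16.0% downregulated. In 15 of the 65 genes every cold-acclimated library lay above every non-acclimated one, against 9.69% of all genes, and in 2 every cold-acclimated library lay below, against 31.4%. The median log2 fold change was 0.72 over the 65 genes and -0.34 over all genes. With median-of-ratios scaling between libraries, which moved the median of all genes to 0.03, the median of the 65 genes was 1.09, and 13 were upregulated and 0 downregulated, against 6.87% and 8.60% of all genes. At an unadjusted p under 0.05 in limma without this scaling, 20 were higher and 2 lower, against 7.75% and 29.97% of all genes. Among the 41 genes with at least 20 reads, 7 were upregulated and 1 downregulated, against 2.55% and 16.5% of all genes with as many reads. With limma's voom on the recovered reads, which weights each value by its expected precision, 3 were upregulated (Snord16a, Snord53 and Snord69) and 0 downregulated, against 3.34% and 13.9%.

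The values differed between replicate numbers. Within replicate numbers 1, 2 and 3 the median log2 difference between the cold-acclimated and the non-acclimated library was 1.09, 1.05 and -0.14 over the 65 genes, and -0.32, -0.44 and -0.24 over all genes. The snoRNA gene was higher at 26°C in 49, 50 and 27 of the 65 genes, in the same order, against 35.7%, 32.0% and 35.4% of all genes, and in 18 of them in all 3, against 18.2%. Without both libraries of replicate 3, 24 of the 65 genes were upregulated in limma and 1 was downregulated, against 5.34% and 25.3% of all genes, and 8 of the 9 genes called with all libraries were among the 24. With the replicate number as a block, which pairs the libraries, 14 were upregulated and 2 downregulated, against 3.75% and 21.9% of all genes, and all 9 were among the 14.

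**Figure D2:**
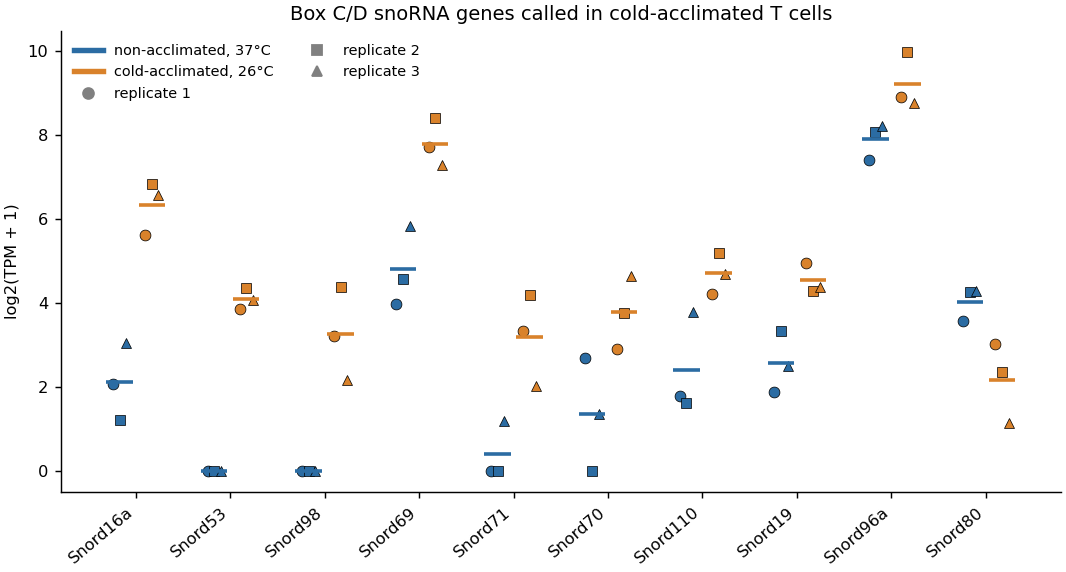
Level of the 10 called box C/D snoRNA genes in each library, as log2(TPM + 1), ordered by log2 fold change. Points are libraries, with the shape giving the replicate number, and short bars are the means of 3 libraries; Snord80 is the only gene of the 10 whose orange points all lie below the blue ones.

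Snord16a and Snord53 had the largest log2 fold changes in limma on log2(TPM + 1) with all libraries. The order depends on the setting. Over the alternatives the largest value was 4.69 for Snord16a, 7.35 for Snord53, 6.40 for Snord98 and 5.05 for Snord71. Snord16a, a guide for small-subunit rRNA, lies in Rpl4, which encodes a protein of the large ribosomal subunit. Its level was 3.21, 1.34 and 7.31 TPM at 37°C and 48.3, 112 and 93.7 TPM at 26°C, from 2, 1 and 8 against 38, 92 and 87 reads. All cold-acclimated libraries were far above all non-acclimated ones, and the log2 fold change was 4.22 ± 0.51 (SE, limma adjusted p = 0.00697). Snord53, a guide for large-subunit rRNA, lies in Wdr43, a gene for small-subunit assembly. It was at 0 in every non-acclimated library and at 13.6, 19.6 and 15.8 TPM, or 8, 12 and 11 reads, at 26°C. Its summed cold-acclimated level was 10.1-fold a floor of 3 reads over the non-acclimated group, a ratio that leaves out the counting error at 26°C. For Snord53 limma gave an adjusted p of 0.00673. It passed the filter on low values only through the cold-acclimated libraries. Snord16a and Snord53 were called under each of the 14 alternatives run on gene levels.

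Both snoRNA genes of Gnl3, which encodes the nucleolar GTPase nucleostemin, were upregulated. Snord69, a guide for large-subunit rRNA, stood at 14.8, 22.7 and 56.4 TPM at 37°C and at 208, 337 and 154 TPM at 26°C, without overlap, a log2 fold change of 3.00 ± 0.50 (limma adjusted p = 0.0109). It rested on 57 against 378 reads, and it lost its call in 1 of the 14 alternatives, without non-acclimated replicate 2 (adjusted p = 0.0518). Snord19, a guide for small-subunit rRNA, stood at 2.70, 9.01 and 4.62 TPM against 29.97, 18.5 and 19.96 TPM. Its log2 fold change was 1.98 ± 0.40 (limma adjusted p = 0.0181), from 8 against 34 reads, and the call was lost in 4 of the 14 alternatives. Gnl3 itself was higher in every cold-acclimated library, with a log2 fold change of 1.18, but did not pass the test (adjusted p = 0.0749 in limma). This host was called in 5 of the 14 alternatives.

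One snoRNA gene each was upregulated in Nop56 and Nop58, the hosts that encode core proteins of the box C/D particle itself. Snord110 in Nop56 was at 2.47, 2.06 and 12.7 TPM at 37°C and at 17.6, 35.8 and 24.9 TPM at 26°C (log2 fold change 2.31 ± 0.59, limma adjusted p = 0.0326). Its groups did not overlap, but non-acclimated replicate 3 came near the lowest cold-acclimated library, and the call was lost in 6 of the 14 alternatives. Snord70 in Nop58 was at 5.504, 0 and 1.57 TPM against 6.54, 12.6 and 24.0 TPM, with only 3 reads at 37°C and 22 at 26°C. Summed over libraries this was a ratio of 7.13, with an exact 95% interval of 2.14 to 37.2 that covers counting error only. Its limma adjusted p was 0.04999, just under the threshold, and the call was lost in 9 of the 14 alternatives. Both are guides for small-subunit rRNA. Their neighbours in the same hosts, Snord57 and Snord11, had log2 fold changes of 1.49 and 1.26 and did not pass the test. Snord11 had only 1 read at 37°C and 7 at 26°C. With a mean of 0.77 TPM at 37°C, it passed the filter on low values only through the cold-acclimated libraries.

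Snord98 lies in Ccar1, a transcriptional coactivator gene, and Snord71 in Ap1g1, which encodes a subunit of a clathrin adaptor, and both were upregulated from few reads. Snord98 had no read at 37°C and 2, 5 and 1 reads at 26°C, or 8.26, 19.8 and 3.50 TPM. Its summed cold-acclimated level was 2.59-fold the floor of 3 reads over the non-acclimated group (limma adjusted p = 0.0101), without the counting error at 26°C. Its deposited gene is 28 bases long, the shortest of the 100. Snord71 had 0, 0 and 1 reads against 5, 10 and 2, or 0, 0 and 1.3 TPM against 9.03, 17.4 and 3.06 TPM. Summed over libraries the ratio was 16.5, with an exact 95% counting interval of 2.59 to 691 (limma adjusted p = 0.0207). These were the only called genes with fewer than 20 reads, 8 and 18, and both passed the filter on low values only through the cold-acclimated libraries. The call of Snord71 was lost in 6 of 13 alternatives and that of Snord98 in 1 of 13.

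Snord96a was the most abundant of the 100 genes in every condition. It lies in Rack1, which encodes a scaffold protein of the small ribosomal subunit, and is known as a guide for an rRNA of the large subunit. Its level was 169, 269 and 297 TPM at 37°C and 474, 1003 and 434 TPM at 26°C, without overlap, from 534 against 1352 reads. The log2 fold change was 1.31 ± 0.38 (limma adjusted p = 0.0492), and the call was lost in 9 of the 14 alternatives. Its neighbour in Rack1, Snord95, ranged from 2.15 to 47.7 TPM at 37°C and from 24.5 to 121 TPM at 26°C, and did not pass the test (log2 fold change 1.90 ± 0.99, limma adjusted p = 0.203).

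**Figure D3:**
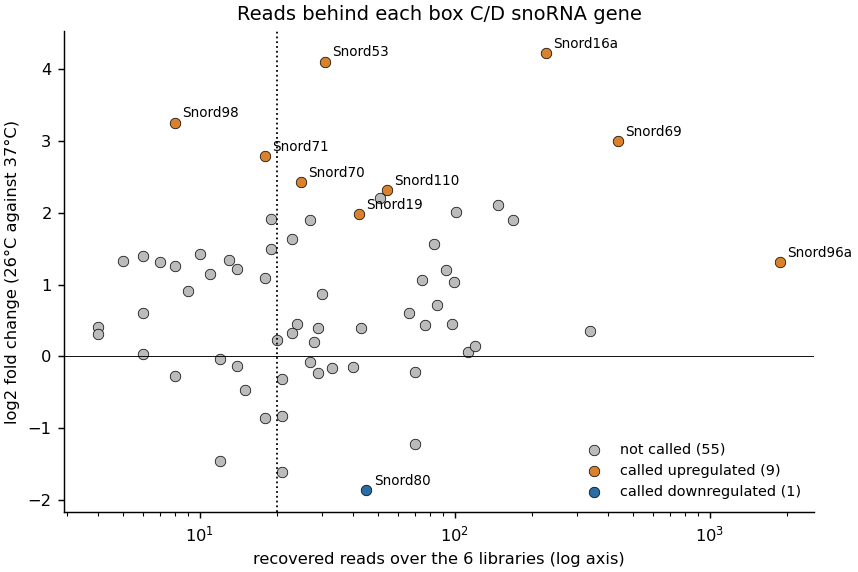
Log2 fold change of the 65 tested genes against their recovered reads over the 6 libraries (log axis), with the 9 upregulated genes in orange and the downregulated gene in blue. The dotted line marks 20 reads, below which 24 of the 65 genes lie; among the 9 genes with at least 100 reads none had a log2 fold change below 0.

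The 7 sequences that follow belong to hosts with several snoRNA genes and unlike calls, Gas5, Rack1, Nop56 and Nop58, so that genes within 1 host can be set side by side. Snord110 and Snord70 of the latter hosts are given above. Capitals again mark TGATGA near the start and CTGA near the end.

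Snord47, chr1:160865662-160865726, plus strand: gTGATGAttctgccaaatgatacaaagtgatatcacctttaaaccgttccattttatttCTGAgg
Snord78, chr1:160864554-160864619, plus strand: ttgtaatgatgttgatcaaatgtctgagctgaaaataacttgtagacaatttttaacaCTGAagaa
Snord80, chr1:160865171-160865251, plus strand: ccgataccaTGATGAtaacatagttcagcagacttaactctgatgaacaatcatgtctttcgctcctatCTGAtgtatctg
Snord96a, chr11:48692860-48692936, plus strand: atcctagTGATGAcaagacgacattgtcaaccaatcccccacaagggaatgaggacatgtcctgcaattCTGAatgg
Snord95, chr11:48693966-48694033, plus strand: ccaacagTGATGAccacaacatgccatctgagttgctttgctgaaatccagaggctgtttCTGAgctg
Snord57, chr2:130119946-130120008, plus strand: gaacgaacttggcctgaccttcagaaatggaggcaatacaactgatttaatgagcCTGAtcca
Snord11, chr1:59743967-59744029, plus strand: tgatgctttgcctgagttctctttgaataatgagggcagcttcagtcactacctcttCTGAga

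Gas5, a noncoding RNA gene whose introns carry many box C/D snoRNAs, held the only downregulated gene. Snord80, a guide for large-subunit rRNA, fell from 10.8, 18.03 and 18.5 TPM at 37°C to 7.14, 4.11 and 1.21 TPM at 26°C, a log2 fold change of -1.86 ± 0.49 (limma adjusted p = 0.0367). The groups did not overlap, the reads numbered 36 against 9, and the call was lost in 10 of the 14 alternatives, median-of-ratios scaling among them. In the same host Snord78 was at 59.7, 68.2 and 112 TPM against 80.6, 133 and 90.5 TPM (log2 fold change 0.36), and Snord47 at 8.98, 1.87 and 12.8 TPM against 5.33, 3.42 and 1.51 TPM (-0.83). Both overlapped between conditions and neither passed the test. Gas5 itself had a log2 fold change of 0.47 (adjusted p = 0.308 in limma).

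In the other 4 hosts with at least 3 tested snoRNA genes no gene was called. In Hspa8, the gene of a constitutive heat shock protein 70, the copies of U14, which acts in small-subunit rRNA processing, ran apart. Snord14d was at 3.35, 4.20 and 11.5 TPM at 37°C and 0, 1.28 and 3.38 TPM at 26°C (log2 fold change -1.61, limma adjusted p = 0.1001). It was called downregulated with the replicate block, without both libraries of replicate 3 and without cold-acclimated replicate 3. Snord14c had reads at 26°C only, 5 in all. Snord14c and Snord14d share 97.7% of their bases, so the assignment of reads to 1 or the other is uncertain. Snord14e, and Snord14a in Rps13, had log2 fold changes of 0.61 and 1.57. Snord14a had a limma adjusted p of 0.0554 and was called in 5 of the 14 alternatives, the replicate block and median-of-ratios scaling among them. In Rpl13a, Snord32a, Snord34 and Snord35a had log2 fold changes of -0.07, 0.23 and 0.86. In Rpl23a those of Snord42a, Snord42b and Snord4a were 1.32, 0.39 and 0.60. In 2410006H16Rik, a noncoding host, those of Snord49a, Snord49b and Snord65 were 0.45, -0.32 and 0.33. Among these 9 genes, the libraries of the conditions were fully apart for Snord4a alone. It was at 10.4, 13.9 and 15.4 TPM at 37°C against 18.2, 23.8 and 19.6 TPM at 26°C (limma adjusted p = 0.127). Over all tested genes, 9.69% lay fully higher and 31.4% fully lower at 26°C, so 1 of 9 was no excess.

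**Figure D4:**
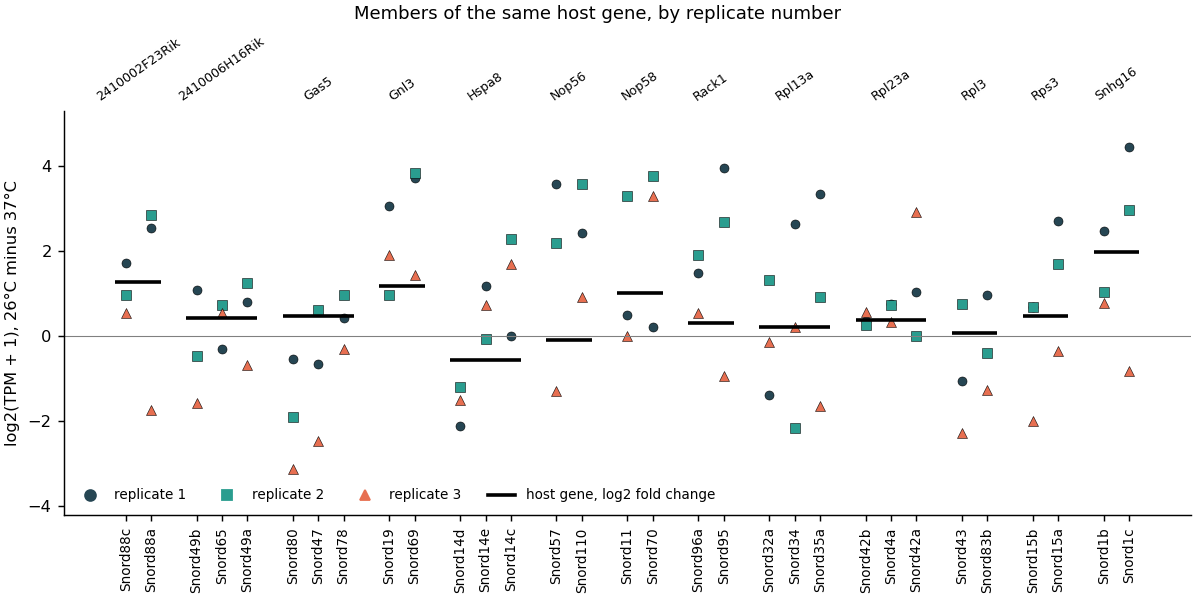
Log2 difference of each snoRNA gene, 26°C minus 37°C on the log2(TPM + 1) scale, within each replicate number, for the 13 hosts with at least 2 tested snoRNA genes. Black bars give the log2 fold change of the host; in Gas5 the points of Snord80 lie below 0 in all replicates while those of Snord78 lie on both sides of 0.

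The most abundant genes that were not called varied with the library. Snord100 in Rps12 was at 12.9, 5.37 and 15.9 TPM at 37°C and at 83.3, 111 and 11.5 TPM at 26°C. Replicates 1 and 2 were much higher at 26°C and replicate 3 was lower (log2 fold change 2.1 ± 0.81, limma adjusted p = 0.102). The gene was upregulated without both libraries of replicate 3 and without cold-acclimated replicate 3. Snord91a in Tsr1, a gene for small-subunit maturation, was at 9.72, 18.3 and 20.8 TPM against 28.9, 55.6 and 31.0 TPM, without overlap (log2 fold change 1.20, limma adjusted p = 0.0581). It was called in 4 of the 14 alternatives, the replicate block and median-of-ratios scaling among them. Snord72 in Rpl37 overlapped between conditions, with 22.3 to 46.2 TPM at 37°C and 21.2 to 59.3 TPM at 26°C. Snord22 in Snhg1, known for a part in rRNA processing, had a log2 fold change of 0.06 ± 0.52 and did not pass the test.

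The snoRNA genes and their hosts were then compared directly. For each of 368 genes lying inside another gene on the same strand, the log2(TPM + 1) of the host was subtracted in every library, and limma was run over all 368 differences. Of the 64 box C/D genes with a host, 4 were raised relative to it and 0 were lowered, against 5.98% and 0.0% of all such pairs, so the share was near that of all contained genes. At an unadjusted p under 0.05 in limma 8 were raised and 1 was lowered, against 22.3% and 3.26% of the pairs, and with voom on the recovered reads 4 were raised and 1, Snord80, was lowered, against 12.0% and 0.815% of the pairs. Among genes with at least 20 reads 4 were raised and 1, again Snord80, was lowered, against 12.3% and 0.823% of the pairs. With the replicate block only Snord16a was raised, against 2.45% of all pairs. Relative to the host, every cold-acclimated library lay above every non-acclimated one for 9 genes and below for 2, against 25.5% and 5.71% of all pairs. The median change relative to the host was 0.51 over the 64 genes and 0.65 over all pairs.

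The 4 raised genes were Snord16a, Snord71, Snord98 and Snord53. The last 3 had 1, 0 and 0 reads at 37°C and passed the filter on low values only through the cold-acclimated libraries, so a difference was built into their selection, and the size of their fitted changes depends on the pseudocount. Snord16a changed by 3.79 ± 0.70 more than Rpl4 on the log2 scale (limma adjusted p = 0.0175), as Rpl4 itself had a log2 fold change of 0.43. It went from 0.102% to 1.64% of the TPM of Rpl4. Snord71 changed by 3.46 ± 0.74 more than Ap1g1 (limma adjusted p = 0.0228), from 0.774% to 27.0% of the host's TPM. Ap1g1 itself was lower in every cold-acclimated library (log2 fold change -0.68, limma adjusted p = 0.0666), so these values also hold the host's decrease. Snord98 changed by 3.32 ± 0.69 more than Ccar1 (limma adjusted p = 0.0216), and Ccar1 overlapped between conditions. Snord53 changed by 2.67 ± 0.55 more than Wdr43 (limma adjusted p = 0.0216), although Wdr43 rose too, from 138, 191 and 172 TPM to 457, 503 and 392 TPM. Over the alternatives the relative change ranged from 2.93 to 5.74 for Snord71, from 2.42 to 6.46 for Snord98 and from 2.43 to 5.91 for Snord53. Of these calls, 3 were lost with the replicate block, and all 4 were lost when either library of replicate 2 was left out.

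For 3 other called genes the change relative to the host lay just outside the threshold. Snord69 changed by 1.82 ± 0.51 more than Gnl3 (limma adjusted p = 0.0557) and went from 23.3% to 89.1% of the host's TPM. Snord110 changed by 2.41 ± 0.67 more than Nop56 (limma adjusted p = 0.0542), while Nop56 had a log2 fold change of -0.10. Snord80 changed by -2.33 ± 0.63 relative to Gas5 (limma adjusted p = 0.0530). For Snord19, Snord70 and Snord96a the library values relative to the host overlapped between conditions. Most snoRNA genes were far below their host per length, with a median of 1.29% of the host's TPM at 37°C and 2.62% at 26°C, and 48 of the 64 were under 10% at 37°C.

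**Figure D5:**
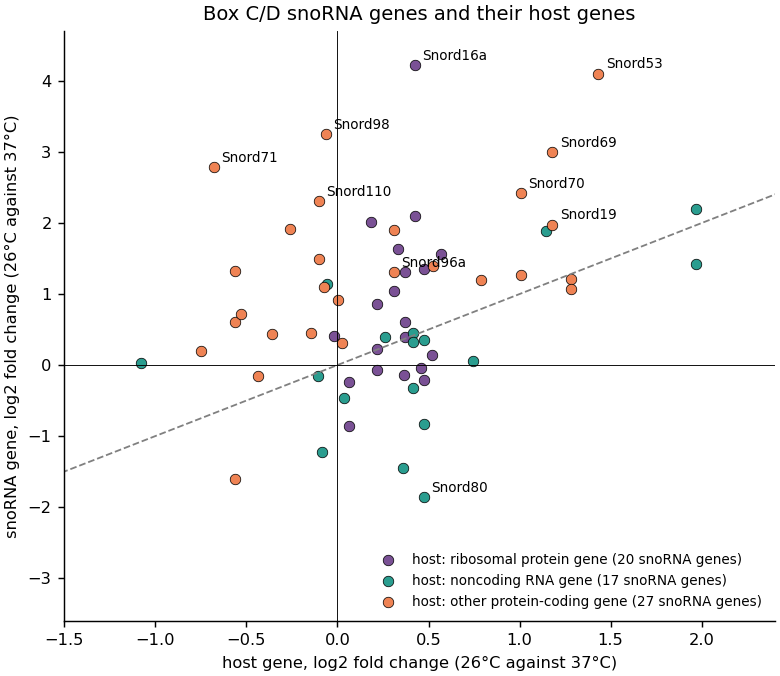
Log2 fold change of 64 box C/D snoRNA genes against that of their host gene, 26°C against 37°C, coloured by the kind of host. The dashed line marks equal change; the called upregulated genes lie above it, and Snord80 lies below it.

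Over all genes, 2.63% were upregulated and 16.0% downregulated, and over the 368 contained genes 15.2% and 3.53%. By kind of host, the upregulated box C/D genes were mostly in protein-coding genes other than ribosomal protein genes. Ribosomal protein genes were taken by Rpl and Rps symbols, so Rack1, the host of Snord96a and Snord95, was counted among the others. Of 27 tested genes in such other hosts 8 were upregulated, and the median log2 fold change was 1.26 for the snoRNA genes and -0.07 for the 20 hosts. Among the 8, Snord53, Snord98 and Snord71 passed the filter on low values only through the cold-acclimated libraries. Of 20 in ribosomal protein genes 1 was upregulated, with a median of 0.50 for the snoRNA genes and 0.37 for the 14 hosts. Of 17 in noncoding RNA genes none was upregulated and 1 was downregulated. The median there was 0.06 for the snoRNA genes and 0.31 for the 12 hosts. At an unadjusted p under 0.05 in limma, 11 of the 27 were higher and 1 lower. Among the 20 in ribosomal protein genes 6 were higher and 0 lower, and among the 17 in noncoding genes 3 and 1. Over the 368 contained genes 29.1% were higher and 7.88% lower at that p. The differences between these kinds were not tested. Among the 46 hosts, 4 were upregulated and 0 downregulated, namely Wdr43, Nop58, Snhg16 and 2410002F23Rik. They held 7 tested snoRNA genes, of which Snord53 and Snord70 were called. The log2 fold change was above 0 for 34 of the 45 genes whose host was above 0 and for 15 of the 19 whose host was below 0. It was above 0 for 263 of the 368 contained genes of any type and for 4090 of all 12227 genes. These counts include genes that passed the filter on low values only through the cold-acclimated libraries, and no difference between them was tested.

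Other snoRNA genes in the same libraries were counted in the same way, beside the box C/D genes, of which 13.8% were upregulated with a median log2 fold change of 0.72. Of 107 tested snoRNA genes with other symbols, 19 (17.8%) were upregulated and 1 downregulated, with a median of 0.76. Of 28 tested box H/ACA genes, 2 (7.14%) were upregulated and 0 downregulated, with a median of 0.94. The medians of the box H/ACA genes within replicate numbers were 1.33, 1.33 and -0.22, so replicate 3 was again the exception. Of 177 tested genes that lie inside another gene and are not snoRNA genes, 28 (15.8%) were upregulated and 11 downregulated, with a median of 0.34. No difference between these classes and the box C/D genes was tested.

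The genes for proteins that build and process box C/D particles were called in both directions. Of the 4 core genes, Nop58 was upregulated, from 148, 199 and 240 TPM to 320, 373 and 484 TPM (log2 fold change 1.01, limma adjusted p = 0.0396), a call lost in 7 of the 14 alternatives. Fbl was higher in every cold-acclimated library but did not pass the test (0.90, limma adjusted p = 0.0969), and Nop56 (-0.10) and Snu13 (0.19) overlapped between conditions. Of 12 assembly factors 2 were upregulated and 2 downregulated (16.7% each), against 2.63% and 16.0% of all genes. The downregulated share was thus near that of all genes. Not called, Aqr and Pih1d1 were lower in every cold-acclimated library and Coil higher (-0.89, -0.74 and 0.53, limma adjusted p = 0.0387, 0.0901 and 0.184). Aqr passed the threshold for the adjusted p but not that for size. Nufip1, a platform protein for assembly, rose by 1.34 and Nopchap1, which links Nop58 to the assembly machinery, by 1.48 on the log2 scale (limma adjusted p = 0.00956 and 0.0109). Ruvbl1 and Ruvbl2, the paired ATPases of the same machinery, fell by 1.35 and 1.05 (limma adjusted p = 0.0381 and 0.0369), and the calls were lost in 7 and 9 of the 14 alternatives, median-of-ratios scaling among them. Of 5 genes for debranching and trimming, only Dis3, a catalytic subunit of the exosome, was called, with an increase of 1.53 (limma adjusted p = 0.0324) and a call lost in 6 of the 14 alternatives, whereas the debranching enzyme gene Dbr1 did not pass the test (0.33).

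The 31 genes without a read included 19 inside Snhg14, the long noncoding host of the imprinted Prader-Willi region, among them all 17 Snord116 genes. Snhg14 itself had reads in every library, at 1.43, 2.22 and 1.14 TPM at 37°C and 0.473, 0.5003 and 0.413 TPM at 26°C. The 17 Snord116 genes share at least 90% of their bases in all 136 pairs, and how reads matching several copies were counted is not given in the sources used here. The other 12 included Snord118 (U8), which acts in large-subunit rRNA processing and lies in no host gene. For Snord118, a count of 0 allows up to 3 reads over a group, or 0.786 TPM in the cold-acclimated libraries, so its level was not detectable at this depth.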

How the data were processed

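Sequencing of poly(A)+ RNA from 6 libraries was described by the submitters' processing notes with FastQC 0.11.7, Trimmomatic 0.38, HISAT2 2.1.0 and featureCounts 1.6.3 on GRCm39. The values are TPM as deposited by the authors, that is, counts divided by gene length and scaled to 1000000 per library. The annotation release, strand setting and gene lengths were not given in the sources used. All sample columns were used (0 left unmapped), and the deposited table's symbols, types and positions define the genes.

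Read numbers were recovered because a gene's TPM in the libraries are multiples of what 1 read is worth. For snoRNA genes the length came from the coordinates, and the read numbers were whole within 2.27e-13. For other genes the length was fitted so that the read numbers came out whole. That 100% of 21195 genes with a TPM above 0 were whole within 1e-06 reads is thus partly built in. The fit across genes used R 4.3.3 and limma 3.58.1, with the variance trend on mean level, for log2(TPM + 1) of the 12227 genes whose mean TPM reached 1. TPM are not counts, so limma took the place of the study's count test. The host is the shortest gene of any type on the same strand that contains the snoRNA gene, leaving out genes with identical coordinates. Summed values were compared by exact permutation tests in scipy 1.17.1, and sequences were read with Python 3.11.15 from GRCm39. Its GENCODE vM39 genes overlapped 99.997% of 29910 deposited genes matched by identifier. Of 78 box C/D genes so matched, only 31 had the same start, end and strand. The sequences, motif windows and gene lengths given here therefore depend on the deposited ends. The scripts were tested on simulated data, with changes placed only in genes with many more reads than most snoRNA genes here. That test therefore does not cover calls at the depth of these genes.

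The members, gene lists and rules were chosen with earlier results of these data known. Named are the called members, the 6 most abundant tested members not called, members of hosts with at least 3 tested members, U14 and Snord22 genes, their hosts, and core or called particle genes. Libraries with the same replicate number deviated together from their condition's mean (correlations of 0.48, 0.50 and 0.51, against -0.41 to 0.02 between numbers), which pairs them, and the labels mention separate RNA extraction batches without assigning them. p-values measure the spread between these samples. Alternatives were a pseudocount of 0.1, no filter, at least 20 recovered reads, median-of-ratios and quantile scaling, voom on recovered reads, a replicate block, each library left out, the host with the highest TPM, and, chosen after seeing the data, the sum without Snord96a and all results without both libraries of replicate 3.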

Additional observations from a re-analysis of the deposited data

How the results depend on the processing

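Against 9 upregulated and 1 downregulated box C/D snoRNA genes with all libraries, limma called 5 and 0 with no filter, 14 and 0 with quantile normalization, 3 and 0 with voom on recovered reads, 14 and 2 with the replicate block that pairs the libraries, and 13 and 0 with median-of-ratios scaling. Leaving out 1 library gave 4 to 17 upregulated and 0 to 2 downregulated genes, the most without cold-acclimated replicate 3, and leaving out both libraries of replicate 3 gave 24 and 1. Relative to the host, 4 genes were raised and 0 lowered. The raised genes numbered 2 with a pseudocount of 0.1, 1 with the replicate block and 0 to 7 with 1 library left out, and 1 gene was lowered with at least 20 reads and with voom. The cause of these differences was not tested. The direction of the median over the tested genes and of the summed TPM held under each alternative run, with medians between 0.45 and 1.21. Of 1210 comparisons for 85 named results, 1070 stayed on the same side of the threshold, 98 lost a call, 42 gained one and 0 reversed. Among the called snoRNA genes, Snord80 lost its call in 10 and Snord70 and Snord96a in 9 of 14 alternatives, and Ruvbl2 also in 9. The depth limits the single genes: 24 of the 65 tested genes had fewer than 20 reads in all, and 31 had no read in at least 1 library.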
